A study of Mus musculus with 48 samples.

Results

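Histone deacetylases of class I (Hdac1, Hdac2, Hdac3 and Hdac8) and class IIa (Hdac4, Hdac5, Hdac7 and Hdac9) are described here in the hippocampus of Setd1b conditional knockout (cKO) mice. The 8 genes were taken by symbol from the gene identifiers of the RNA count tables, which held 48709 genes for neuron RNA and 47729 for whole CA RNA. All 8 passed the filter on low counts in both materials. Class I enzymes remove acetyl groups from histone tails and work as the catalytic subunits of corepressor complexes such as Sin3, NuRD, CoREST and NCoR/SMRT. Class IIa proteins have little deacetylase activity of their own. They bind MEF2 transcription factors and are moved out of the nucleus when kinases such as CaMK, PKD and SIK phosphorylate them and 14-3-3 proteins bind. In the hippocampus, Hdac2 and Hdac3 are known for limiting memory formation, and Hdac4 and Hdac5 for shuttling with neuronal activity.

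The series compared cKO with control mice, all of the C57BL/6J strain and 4 to 6 months old. Setd1b encodes a methyltransferase of histone H3 lysine 4 (H3K4). The 48 libraries held 18 of RNA and 30 of chromatin immunoprecipitation (ChIP). Neuron RNA came as 3 cKO and 3 control libraries and whole CA RNA, from the CA part of the hippocampus with all its cell types, as 6 and 6. ChIP of fixed, sorted neuronal nuclei had 4 libraries per genotype for H3K4me3 and H3K4me1, 3 cKO and 4 control for H3K9ac, and 4 cKO and 3 control for H3K27ac. The labels do not name the Cre driver, the deleted part of Setd1b or how neuron RNA was isolated. They do not say that replicates are separate animals, so p-values measure only the spread between these samples.

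Total counts per library were 55.7 to 69.1 M for neurons and 14.9 to 20.1 M for whole CA. Mean counts of Setd1b over the whole gene were higher, not lower, under the cKO label, and the groups overlapped in both materials. The neuron mean was 64.6 CPM (counts scaled to the size of the library) under the cKO label and 54.5 CPM under the control label (log2 difference 0.25, edgeR adjusted p = 0.361). In whole CA the averages were 59.4 and 39.6 CPM, higher in the libraries labelled cKO (log2 difference 0.59, edgeR adjusted p = 0.00415). Whether these reads lie in a deleted part cannot be seen from counts per gene, and the groups are therefore named by their labels. Summed CPM of the 5 astrocyte markers was 25.3 to 31.8 in neuron RNA labelled control and 1443 to 1694 in whole CA RNA labelled control. The 5 neuron markers summed to 4446 to 4586 CPM and 6705 to 7250 CPM in the same libraries. No marker of any list was at 0 in every library of either material.

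In whole CA RNA, Hdac9 was the 1 member of 8 that passed the test between genotypes, and it was lower in the libraries labelled cKO. Over all genes tested, 4.17% passed, with 2.79% of genes lower and 1.38% higher. By class, 0 of 4 class I and 1 of 4 class IIa genes passed there. In neuron RNA, none of the 8 members passed, where 2.75% of all genes did. There Hdac1 alone had an unadjusted p under 0.05, which 17.2% of all genes had. A gene passed when its p from edgeR's quasi-likelihood test, adjusted over all genes by Benjamini and Hochberg's method, was under 0.05. The members' median log2 difference, labelled cKO minus labelled control, was −0.0528 in neurons against 0.0192 over all genes. In whole CA it was 0.0134 against −0.00272. CPM values are normalised between libraries, and they are not compared between genes because gene lengths were not used.

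**Figure D1:**
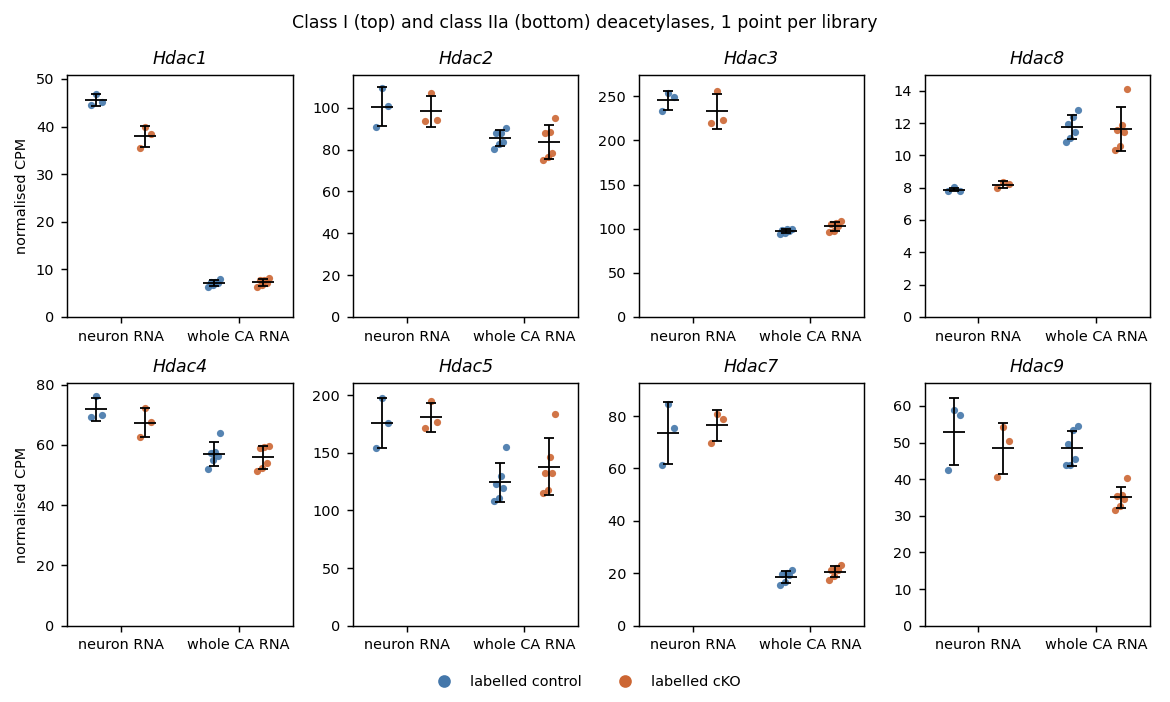
Normalised CPM of the 8 deacetylase genes in each neuron RNA library (3 per genotype) and whole CA RNA library (6 per genotype), with bars for the mean and SD and a separate linear axis from 0 for each gene. Hdac9 of whole CA RNA labelled cKO, at 31.7 to 40.2 CPM, lies below all 6 libraries labelled control, at 43.8 to 54.6 CPM, and Hdac1 and Hdac7 are far lower in whole CA than in neuron RNA.

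Hdac9 encodes a class IIa protein that binds MEF2 factors. It lies on chromosome 12 at chr12:34047580-34917095 of GRCm38.p6, a span of 869516 bp on the minus strand. Its whole CA level in libraries labelled control had a lowest value of 43.8, a median of 47.5 and a highest of 54.6 CPM. In libraries labelled cKO these were 31.7, 35.0 and 40.2 CPM. The groups did not overlap, which held for 1.93% of all genes with lower values in cKO. The means were 35.0 ± 2.95 CPM (SD, n = 6) in cKO and 48.5 ± 4.8 CPM (SD, n = 6) in control, a log2 difference of −0.47 (SE 0.0745, 95% interval −0.62 to −0.31, edgeR adjusted p = 0.000668). The counts behind these values ran from 478 to 987 reads per library. Replicates 1 to 3 and 4 to 6 carry different lane numbers. Within replicates 1 to 3 the log2 difference was −0.49 (edgeR adjusted p = 0.0242), and within replicates 4 to 6 it was −0.45 (edgeR adjusted p = 0.0759). With lane as a term it was −0.47 (edgeR adjusted p = 0.000617). Overlapping annotated genes at this locus are 6 predicted genes, and whether counting used strand is not stated.

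Summed markers of several cell types differed between the genotype labels in the same whole CA libraries. Summed CPM of the 4 meningeal fibroblast markers was 55.8 to 94.4 in control and 20.4 to 25.2 in cKO. For the 3 choroid plexus markers it was 29.5 to 36.6 and 16.8 to 20.2, and for the 5 microglia markers 260 to 316 and 229 to 255. These 3 sums did not overlap between the groups. Dcn made up most of the fibroblast sum (65.4 CPM in control and 13.9 CPM in cKO) and Kl most of the choroid plexus sum (27 and 13.3 CPM). The 3 dentate granule cell markers summed to 51.8 to 79.6 CPM in control and 28.4 to 70.5 CPM in cKO, with overlap. The 5 neuron markers summed to 6705 to 7250 CPM and 6578 to 7673 CPM. Individually, 1 marker passed the test in each of 5 lists, all lower in cKO: Aqp4 of astrocytes (−0.38), Cx3cr1 of microglia (−0.22), Dcn of fibroblasts (−2.25), Kl of choroid plexus (−1.04) and Dsp of dentate granule cells (−0.96). Their part in the Hdac9 result was not tested. In bulk RNA, fewer cells of a type and less RNA per cell cannot be told apart.

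In neuron RNA, Hdac9 gave 42.4, 57.5 and 58.9 CPM for control replicates 1 to 3 and 50.3, 54.2 and 40.7 CPM for cKO replicates 1 to 3. The groups overlapped, and each contained a library near the lowest value. The log2 difference was −0.13 (SE 0.144, 95% interval −0.45 to 0.19, edgeR adjusted p = 0.681). That interval holds 0 and also values as low as −0.45. The difference between the genotype effects, neuron minus whole CA, was 0.35 for Hdac9 (SE 0.152, 95% interval 0.03 to 0.66, edgeR adjusted p = 0.582). It did not pass after adjustment, so the effects are not shown to differ between the materials. No member passed this test, and 0.16% of all genes did. Hdac1 and Hdac9 had an unadjusted p under 0.05, as 8.11% of all genes had.

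Hdac1 is a catalytic subunit of Sin3, NuRD and CoREST complexes and lies at chr4:129516104-129542646. Its neuron levels were 46.9, 45.2 and 44.6 CPM in libraries labelled control and 39.9, 35.4 and 38.4 CPM in those labelled cKO, from 2155 to 3066 counts. All 3 cKO libraries were below all 3 control libraries, which was so for 12.4% of all genes. The means were 37.9 ± 2.29 and 45.6 ± 1.23 CPM (SD, n = 3 each). The log2 difference was −0.26 (SE 0.0825, 95% interval −0.45 to −0.08), with an unadjusted p of 0.00976 and an adjusted p of 0.146 by edgeR's test over all genes. It therefore did not pass. In whole CA, Hdac1 ranged from 6.24 to 8.02 CPM (median 7.20) in control and from 6.30 to 8.28 CPM (median 7.45) in cKO. There the log2 difference was 0.04 (SE 0.101, edgeR adjusted p = 0.914). The difference between the materials' effects was −0.30 (SE 0.130, 95% interval −0.57 to −0.03, edgeR adjusted p = 0.582). A near-identical Hdac1 copy, Gm10093 in the tables, was counted 22 to 39 times per neuron library and 0 to 6 times per whole CA library. Reads that match both could have been split or dropped, so the Hdac1 level is uncertain, by an amount these counts do not bound.

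In neuron RNA, summed markers of other cells also differed between the labels. Meningeal fibroblast markers summed to 42.3 to 52.1 CPM in control and 13.1 to 15.8 CPM in cKO. Choroid plexus markers summed to 26.2 to 28.4 and 12.6 to 14.3 CPM, and oligodendrocyte precursor markers to 48.5 to 52.0 and 42.3 to 45.0 CPM. Dentate granule cell markers summed to 147 to 174 and 112 to 147 CPM. These 4 sums were lower in cKO without overlap, and the sum of the 4 mural cell markers was higher, at 8.98 to 11.4 CPM in control and 11.4 to 12.6 CPM in cKO. The dentate groups nearly touched (lowest control 147.11 CPM, highest cKO 147.02 CPM). So did the mural groups (highest control 11.415 CPM, lowest cKO 11.419 CPM). Of all single genes in neuron RNA, 23.9% did not overlap in either direction, by normalised CPM. Most of each lower sum came from 1 or 2 genes. Dcn averaged 42.3 CPM in control and 11.3 CPM in cKO, and Col1a2 of the same list 0.177 and 0.243 CPM. Kl averaged 27.5 and 13.2 CPM. The other genes of the choroid plexus list, Ttr (0.104 and 0.106 CPM) and Folr1 (0.0464 and 0.0581 CPM), were barely counted and did not have lower means. Vcan, of the precursor list, averaged 46.6 and 38.9 CPM, while Pdgfra (1.97 and 2.23 CPM) and Cspg4 (2.12 and 2.73 CPM) did not have lower means. In the dentate list Prox1 averaged 74.9 and 74.5 CPM. Dcn (−1.92), Kl (−1.07), C1ql2 (−0.76) and Dsp (−0.78) passed the test. Their part in the Hdac1 values was not tested.

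Hdac2, the close relative of Hdac1 in the same complexes, lies at chr10:36974297-37001889. It stood at 90.9, 109 and 101 CPM in neurons labelled control and at 93.9, 107 and 94.0 CPM in those labelled cKO. The groups overlapped almost fully. The log2 difference was −0.03 (95% interval −0.25 to 0.19, edgeR adjusted p = 0.895). In whole CA it ran from 80.3 to 90.5 CPM (median 85.8) in control and from 75 to 95.2 CPM (median 83.1) in cKO. There the log2 difference was also −0.03 (95% interval −0.17 to 0.10, edgeR adjusted p = 0.877).

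Hdac3 is the catalytic subunit of the NCoR/SMRT complex and lies at chr18:37936971-37955015. Neuron libraries labelled control had 253, 234 and 249 CPM and those labelled cKO 256, 223 and 220 CPM. The highest cKO library exceeded every control, so the groups overlapped (log2 difference −0.07, 95% interval −0.28 to 0.13, edgeR adjusted p = 0.718). Whole CA values were 94.3 to 100 CPM (median 97.8) in control and 95.8 to 108 CPM (median 104) in cKO. The log2 difference there was 0.07 (95% interval −0.03 to 0.18, edgeR adjusted p = 0.532).

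Hdac8, a class I enzyme that deacetylates the cohesin subunit Smc3, lies at chrX:102284638-102505381, where Gm32262 overlaps it. It had 8.02, 7.82 and 7.82 CPM in neurons labelled control and 7.96, 8.23 and 8.36 CPM in those labelled cKO. Levels spread little within either group and overlapped (log2 difference 0.05, 95% interval −0.15 to 0.26, edgeR adjusted p = 0.801). In whole CA it ranged from 10.8 to 12.8 CPM (median 11.7) in control and from 10.3 to 14.1 CPM (median 11.5) in cKO. The log2 difference was −0.01 (95% interval −0.20 to 0.17, edgeR adjusted p = 0.965).

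Hdac4 shuttles between nucleus and cytoplasm in neurons and lies at chr1:91928779-92195702. Its neuron levels were 76.1, 70.0 and 69.4 CPM in control and 67.5, 62.7 and 72.1 CPM in cKO, and the groups overlapped (log2 difference −0.09, 95% interval −0.28 to 0.10, edgeR adjusted p = 0.622). In whole CA they ran from 52.0 to 64.1 CPM (median 56.8) in control and from 51.5 to 59.8 CPM (median 56.4) in cKO. The log2 difference was −0.03 (95% interval −0.16 to 0.10, edgeR adjusted p = 0.898).

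Hdac5 and Hdac7 are class IIa proteins, Hdac7 being best known from blood vessel and thymus development. Hdac5 lies at chr11:102195747-102230172 and Hdac7 at chr15:97792661-97844502, where Slc48a1 and Gm33636 overlap it. Hdac5 stood at 198, 154 and 176 CPM in neurons labelled control and at 195, 171 and 176 CPM in cKO. Hdac7 stood at 84.5, 61.1 and 75.4 CPM and at 80.9, 69.9 and 78.8 CPM. For both genes, control replicate 2 was the lowest of the 6 neuron libraries, and the groups overlapped. The log2 differences were 0.04 (95% interval −0.20 to 0.28, edgeR adjusted p = 0.883) for Hdac5 and 0.05 (95% interval −0.22 to 0.32, edgeR adjusted p = 0.852) for Hdac7. In whole CA, Hdac5 ran from 108 to 155 CPM (median 121) in control and from 115 to 184 CPM (median 132) in cKO. Hdac7 ran from 15.4 to 21.1 CPM (median 19.7) and from 17.3 to 23 CPM (median 21.2). The cKO replicate 6 was the highest for both, and neither passed (log2 differences 0.15 and 0.14, edgeR adjusted p = 0.552 and 0.511).

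**Figure D2:**
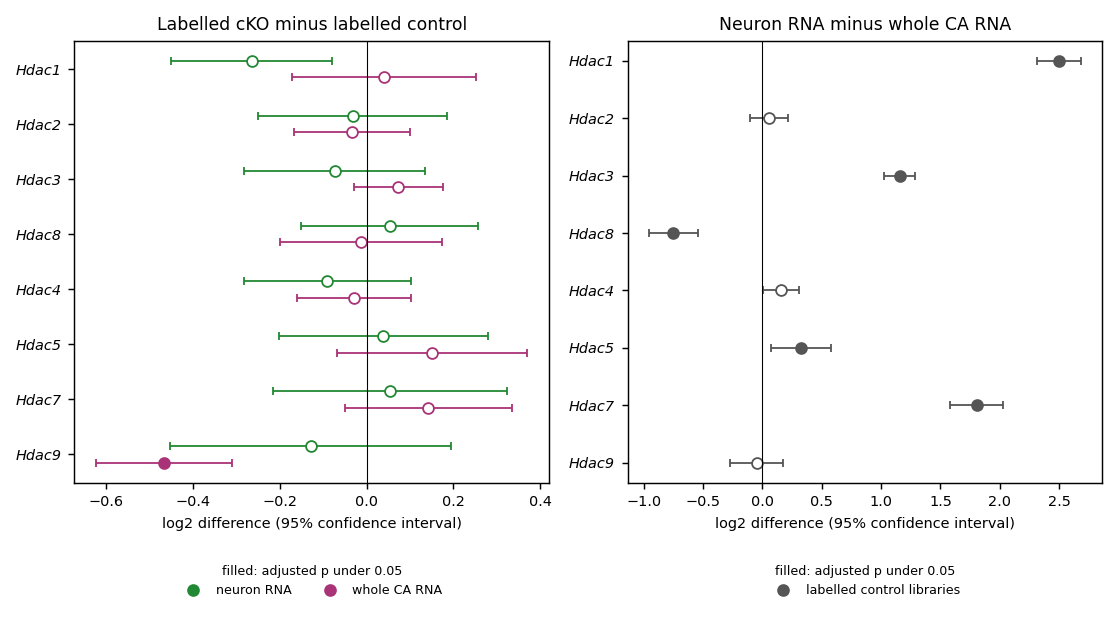
Left, log2 difference between libraries labelled cKO and control for each gene in neuron and whole CA RNA, and right, between neuron and whole CA RNA labelled control, as points with 95% confidence intervals and filled where the edgeR adjusted p is under 0.05. Hdac9 in whole CA RNA (−0.47) is the 1 filled point on the left, and 5 of 8 genes are filled on the right, from −0.75 (Hdac8) to 2.5 (Hdac1).

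Members were also compared between the materials. Between neuron and whole CA libraries labelled control, 5 of 8 passed, 4 higher in neuron RNA and 1 lower, where 83.0% of all genes passed, 43.2% as higher and 39.8% as lower. The share of all genes lies above the members' own. Hdac1 averaged 41.9 ± 1.47 CPM in neuron RNA (SD, n = 3) and 7.40 ± 0.645 CPM in whole CA RNA (SD, n = 6), a log2 difference of 2.5 (SE 0.0883, edgeR adjusted p = 1.88e-17). Hdac7 averaged 67.8 ± 11.6 and 19.4 ± 2.32 CPM (log2 difference 1.80, edgeR adjusted p = 1.97e-13). Hdac3 averaged 226 ± 12 and 101 ± 2.34 CPM (log2 difference 1.16, edgeR adjusted p = 5.3e-14). Hdac8 was the gene lower in neuron RNA, with 7.25 ± 0.180 and 12.2 ± 0.756 CPM (log2 difference −0.75, edgeR adjusted p = 2.47e-07). For Hdac5 the averages were 162 ± 21.7 and 129 ± 17.2 CPM with overlapping groups (log2 difference 0.33, edgeR adjusted p = 0.0163). Without neuron control replicate 1 its log2 difference was 0.23 (edgeR adjusted p = 0.117). Hdac4 (0.16, edgeR adjusted p = 0.0545), Hdac2 (0.06, edgeR adjusted p = 0.508) and Hdac9 (−0.05, edgeR adjusted p = 0.675) did not pass. Over all genes the median log2 difference was 0.0672, and 0.25 with scaling by library size alone. With that scaling Hdac2 (0.24) and Hdac4 (0.34) also passed and Hdac9 was at 0.13.

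Depth also differs between the materials, and isolation and RNA quality, which are not given, may differ. None of these can be told apart from cell type. Of all counts, mitochondrial genes took 0.00814 to 0.0144% in the neuron libraries and 3.41 to 7.05% in those of whole CA. Median log2 differences of marker lists, neuron minus whole CA, were −5.90 for astrocytes, −5.04 for oligodendrocytes, −5.22 for microglia, −7.42 for endothelial cells, −0.33 for neurons and 1.15 for dentate granule cells. The other deacetylases of the zinc-dependent family, classes IIb and IV, all passed, with Hdac6 (0.75) and Hdac10 (1.76) higher in neuron RNA and Hdac11 (−0.35) lower. The MEF2 factors Mef2a (−0.64), Mef2c (−0.41) and Mef2d (−0.71) were lower, 3 of 3 tested. Of the CoREST and MIER partners 7 of 7 were higher, and of the 14-3-3 proteins 6 of 7 were lower and 1 higher. The other lists were mixed, with 5 higher and 2 lower of 7 sirtuins, 3 higher and 6 lower of 13 Sin3 subunits, 4 higher and 7 lower of 12 NuRD subunits, 2 higher and 1 lower of 5 NCoR/SMRT subunits, and 5 higher and 7 lower of 16 kinases. Over all genes, 43.2% were higher and 39.8% lower.

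Genes that work with the deacetylases were tested between genotypes in the same fits. In neuron RNA, where 2.75% of all genes passed, no gene passed among 3 deacetylases of classes IIb and IV, 7 sirtuins, 13 Sin3, 12 NuRD, 7 CoREST or MIER and 5 NCoR/SMRT subunits, 3 MEF2 factors, 16 kinases of class IIa proteins and 7 14-3-3 proteins. The smallest p-values in their lists included those of Camk2b, a calcium-dependent kinase subunit (−0.32, edgeR adjusted p = 0.162, 1000 CPM in cKO and 1252 CPM in control), and Tbl1xr1 of NCoR/SMRT (0.31, edgeR adjusted p = 0.217). Mef2c was at 0.14 (edgeR adjusted p = 0.742). In whole CA RNA 3 genes of these lists passed, all higher in cKO, where 4.17% of all genes passed and 1.38% as higher. Sirt5, a mitochondrial sirtuin and 1 of 7, averaged 12.1 CPM in cKO and 8.98 CPM in control (0.43, SE 0.0999, edgeR adjusted p = 0.0168), with overlapping groups. Brms1, 1 of 13 Sin3 subunits, averaged 23.6 and 18 CPM without overlap (0.39, SE 0.0777, edgeR adjusted p = 0.00518). Sik3, 1 of 16 kinases, averaged 225 and 190 CPM without overlap (0.25, SE 0.0591, edgeR adjusted p = 0.0184). Over all genes, 1.15% were higher in cKO without overlap. Within replicates 1 to 3 or 4 to 6 Sirt5 and Brms1 did not pass (edgeR adjusted p = 0.0814 to 0.311), nor did Sik3 within replicates 4 to 6 (edgeR adjusted p = 0.526). All 7 14-3-3 genes had negative values in whole CA, and none passed. Mef2a, with the smallest p of the 3 MEF2 factors there, was at −0.21 (edgeR adjusted p = 0.342).

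Across the libraries of both genotypes, members varied together in some pairs. Hdac5 and Hdac7 correlated at r = 0.953 over 6 neuron libraries and 0.77 over 12 whole CA libraries. Hdac2 correlated with Hdac7 at −0.95 and with Hdac5 at −0.89 in neurons. Over the 12 whole CA libraries these were weaker, at −0.399 and −0.438. These are descriptions over libraries that share depth and genotype effects. Among 10322 genes searched over the 12 whole CA libraries, the pattern of Hdac9 was most like that of Galntl6 (r = 0.943) and Prss35 (r = 0.929). The closest genes were Trir (0.853) for Hdac1, Pds5b (0.986) for Hdac2, Pradc1 (0.898) for Hdac3, E2f4 (0.877) for Hdac8, Cntn4 (0.75) for Hdac4, Zfp651 (0.969) for Hdac5 and Eif2d (0.922) for Hdac7.

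Start sites were examined next, since Setd1b acts on H3K4. The RefSeq promoter table of GRCm38.p6 gave 10 start sites for 6 members and holds no entry for Hdac1 and Hdac3. The 4 sequences below are the 250 bases upstream of start sites of 3 class IIa genes, and capitals mark CG dinucleotides. Hdac9 is shown for its RNA difference, Hdac7 for its H3K4me3 difference and Hdac5 for its MEF2-type element.
Hdac9 long, minus strand, chr12:34917096-34917345: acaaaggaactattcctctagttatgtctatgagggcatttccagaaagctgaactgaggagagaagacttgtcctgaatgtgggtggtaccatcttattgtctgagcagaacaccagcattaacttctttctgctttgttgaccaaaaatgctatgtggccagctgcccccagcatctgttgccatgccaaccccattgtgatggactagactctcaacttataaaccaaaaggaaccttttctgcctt
Hdac9 inner, minus strand, chr12:34528890-34529139: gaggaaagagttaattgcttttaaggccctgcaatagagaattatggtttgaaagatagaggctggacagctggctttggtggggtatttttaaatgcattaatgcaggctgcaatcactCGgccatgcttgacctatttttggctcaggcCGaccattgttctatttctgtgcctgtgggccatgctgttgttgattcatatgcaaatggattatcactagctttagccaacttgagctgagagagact
Hdac5, minus strand, chr11:102230173-102230422: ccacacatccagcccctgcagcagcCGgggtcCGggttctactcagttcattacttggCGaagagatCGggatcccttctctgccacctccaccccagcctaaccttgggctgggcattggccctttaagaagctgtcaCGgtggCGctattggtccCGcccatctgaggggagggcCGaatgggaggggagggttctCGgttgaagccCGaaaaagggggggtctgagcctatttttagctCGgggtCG
Hdac7 middle, minus strand, chr15:97831768-97832017: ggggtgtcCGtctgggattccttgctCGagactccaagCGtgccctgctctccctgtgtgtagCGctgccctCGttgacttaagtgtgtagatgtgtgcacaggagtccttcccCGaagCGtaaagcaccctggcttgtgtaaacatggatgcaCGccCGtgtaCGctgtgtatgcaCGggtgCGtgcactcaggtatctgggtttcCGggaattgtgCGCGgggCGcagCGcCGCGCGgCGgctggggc

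The windows differ in CG content. The long Hdac9 promoter holds 0 CG dinucleotides and the inner one 2, against 12 for Hdac5 and 21 for Hdac7. Over 32851 promoters the median was 6, with quartiles of 2 and 16. The MEF2-type element, CTA and TAG with 4 bases of any kind between them, searched on both strands, was in 3 of the 10 member windows and in 3.2% of all promoters. It stands at position -32 of the inner Hdac9 window (CTAGCTTTAG) and -20 of the Hdac5 window (CTATTTTTAG), counted from the start site. In the Hdac2 window it reads CTACCCGTAG. Only the Hdac5 match has A or T at all 4 middle bases. The search allowed any bases there, so these shares do not count MEF2 binding sites. The GC box GGGCGG was in 4 of 10 (32.7% of all promoters), TATAAA in 2 (12.4%) and CCAAT in 3 (33.8%). CACGTG (6.02%) and TGACGTCA (1.55%) were in none of the 10. The TATAAA of the long Hdac9 window lies at position -29. These are letter matches only.

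H3K4me3, the trimethyl mark found at active promoters, was measured as the bp covered by deposited peaks within 2500 bp either side of a start site. Over all start sites 22.8% passed the limma test, 21.9% as lower and 0.893% as higher, and the median log2 difference was −0.0784. Of the members' 10 start sites, 2 passed, both of Hdac7 and both within the same peak. Sites without a peak, Hdac9 at 34917095 and Hdac7 at 97844502, were not tested. At the site at 97831495 the 4 control libraries covered 2524 to 2923 bp (mean 2754) and the 4 cKO libraries 2211 to 2487 bp (mean 2360), a log2 difference of −0.21 (SE 0.0589, limma adjusted p = 0.0376). The window there also reached part of a weaker region, chr15:97828355-97829226, with a peak in 3 control and 2 cKO libraries. At 97831767 the means were 2635 and 2360 bp (−0.15, SE 0.0461, limma adjusted p = 0.0493). The groups did not overlap at either site, as at 27.1% of all start sites with lower values. The first call was lost without any library other than control 2 or cKO 3 (limma adjusted p = 0.0628 to 0.0946), and the second without any other than cKO 3 (limma adjusted p = 0.0606 to 0.119). With a window of 1000 bp the signs turned (0.02 and 0.04). In the fit over merged peak regions described below, the same peak did not pass (−0.15, limma adjusted p = 0.160). Hdac7 RNA did not pass between genotypes in either material.

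**Figure D3:**
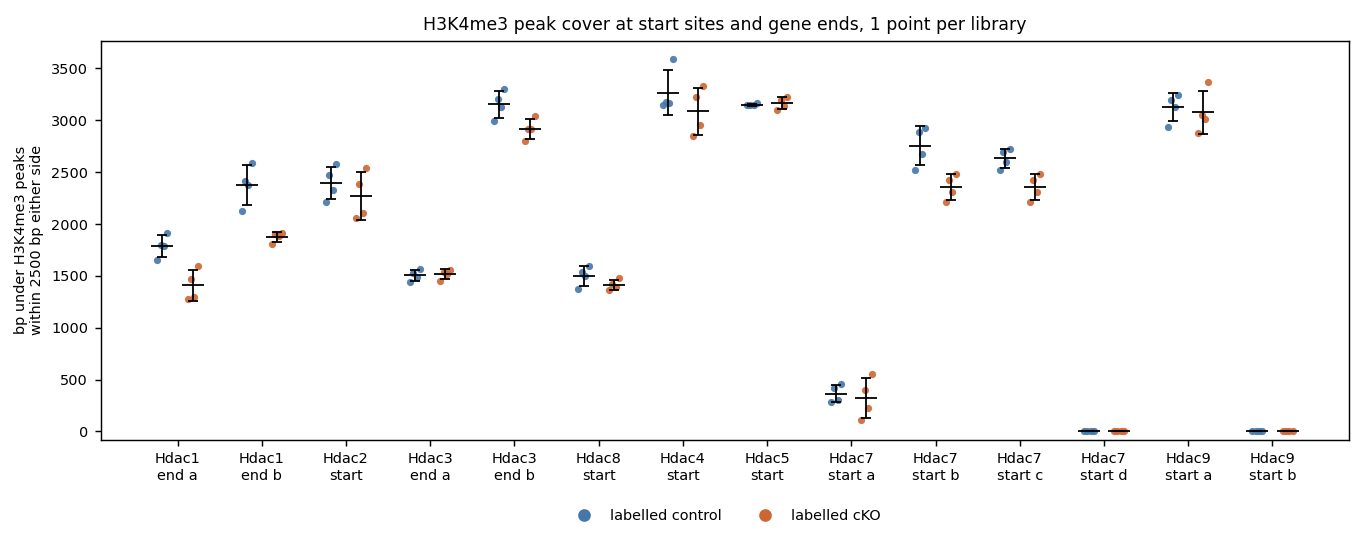
Base pairs under H3K4me3 peaks within 2500 bp of each start site, or of each gene end for Hdac1 and Hdac3, in 4 libraries labelled control and 4 labelled cKO, with mean and SD and letters in order of coordinate. The cKO libraries at both ends of Hdac1 and at Hdac7 starts b and c lie below the control libraries. The peak region at the Hdac1 end at 129516104 lies outside the annotated span. Hdac7 start d and Hdac9 start b, which is the start of the long gene model, are at 0 in every library.

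Hdac1 and Hdac3 were measured at both ends of their annotated spans, an addition made after the data were seen. At the Hdac1 end at 129542646, control libraries covered 2121, 2411, 2586 and 2379 bp and cKO libraries 1901, 1916, 1809 and 1886 bp. Every cKO library was below every control library, as at 27.1% of all start sites. The log2 difference was −0.32 (SE 0.0585, limma adjusted p = 0.00783), and it passed with each library left out in turn, though with a window of 1000 bp it was 0.0098. At the other end, 129516104, the means were 1788 and 1409 bp (−0.33, limma adjusted p = 0.0208), again without overlap. There the call was lost without control 2, 3 or 4 or cKO 4 (limma adjusted p = 0.0524 to 0.0568). The peak region at that end, chr4:129513162-129515512, lies outside the annotated span of Hdac1, and whether it belongs to a neighbouring gene was not tested. The Hdac3 ends had means of 1507 and 1515 bp (0.01) and of 3156 and 2916 bp (−0.11, limma adjusted p = 0.0989).

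At the other members' start sites no difference passed. Means in control and cKO were 3268 and 3088 bp at Hdac4 (−0.08, limma adjusted p = 0.437), 2396 and 2271 bp at Hdac2 (−0.08, limma adjusted p = 0.537), 3151 and 3166 bp at Hdac5 (0.01, limma adjusted p = 0.900) and 1503 and 1412 bp at Hdac8 (−0.08, limma adjusted p = 0.297). The Hdac5 peak, chr11:102225954-102230897, ran beyond the window, so the window cut it short. The whole peak region covered 4704 bp in control and 4301 bp in cKO on average (−0.13, limma adjusted p = 0.266). The inner Hdac9 start site had 3126 and 3076 bp (−0.02, limma adjusted p = 0.803). With a window of 5000 bp this became −0.27 (limma adjusted p = 0.0238). No library had an H3K4me3 peak at the long Hdac9 start site or at the Hdac7 site at 97844502.

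The other marks gave no call at a member. H3K9ac and H3K27ac, acetyl marks of active promoters and enhancers, passed at 0.951% and 0.433% of all start sites, and H3K4me1, the monomethyl mark common at enhancers, at 2.6%. At the Hdac1 end at 129542646, H3K27ac covered 2164, 2515 and 2799 bp in control and 803, 1429, 1627 and 1160 bp in cKO (−0.97, limma adjusted p = 0.187), and the groups did not overlap, as at 10.8% of all start sites with lower values. H3K9ac there averaged 1722 and 1309 bp (−0.37, limma adjusted p = 0.169), also without overlap, as at 13.7% of start sites. H3K4me1 there averaged 2957 bp in both. At Hdac4, H3K9ac averaged 2667 bp in control and 2803 bp in cKO without overlap, as at 3.63% of start sites with higher values, and did not pass (limma adjusted p = 0.533). At Hdac5, H3K4me1 averaged 1815 and 2629 bp (0.48, limma adjusted p = 0.276).

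H3K4me3 was then followed along the whole gene spans in 44667 regions made by merging the peaks of all 8 libraries. Of these, 10.8% passed, 9.36% as lower and 1.44% as higher, and the median log2 difference was −0.00758. The members held 44 regions within their spans or 1000 bp beyond, and 5 passed, 3 lower and 2 higher. The 3 lower ones lay at an end of Hdac1, or outside the spans of Hdac1 and Hdac3 and counted through the 1000 bp margin. Whether those outside belong to neighbouring genes was not tested. At chr4:129540923-129543573, over an Hdac1 end, cover fell from 2374 to 1837 bp on average (−0.35, limma adjusted p = 0.0269, median fold enrichment 56.1 in the deposited peaks). Without control 2, 3 or 4 or cKO 3 or 4 it did not pass (limma adjusted p = 0.0595 to 0.0686). At chr4:129513162-129515512, just outside the other end, the means were 2125 and 1674 bp (−0.33, limma adjusted p = 0.0427), and without control 2, 3 or 4 or cKO 2, 3 or 4 the call was lost (limma adjusted p = 0.0650 to 0.101). At chr18:37931949-37936036, outside Hdac3, they were 3656 and 2717 bp (−0.42, limma adjusted p = 0.0209), and without control 2, 3 or 4 or cKO 3 the call was lost (limma adjusted p = 0.0550 to 0.0561). Outside Hdac9 and the Hdac7 peak above, the other regions in all 8 libraries with a median fold of at least 10 did not pass. In Hdac5 these were at 102215578 (−0.24, limma adjusted p = 0.331) and 102225954 (−0.13, limma adjusted p = 0.266). In Hdac4 they were at 92177468 (−0.23, limma adjusted p = 0.208) and 92180400 (0.03, limma adjusted p = 0.920). Hdac2 had −0.08, Hdac3 (at 37953551) −0.11 and Hdac8 −0.08 (limma adjusted p = 0.670, 0.294 and 0.506).

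The 2 higher regions lay inside class IIa genes and were weak ones. At chr11:102206795-102207180, inside Hdac5, all 4 control libraries had no peak and the cKO libraries covered 146, 177, 195 and 183 bp, with a median fold enrichment of 3.49. It passed by limma (adjusted p = 2.11e-05), but it entered the test only through the cKO libraries. Its control values, all at 0 bp, had no spread, so this p is not taken as support. At chr12:34472980-34473734, inside Hdac9, control libraries covered 232, 0, 183 and 0 bp and cKO libraries 585, 586, 695 and 695 bp (2.08, limma adjusted p = 0.0244). Without control 2 or any single cKO library it did not pass (limma adjusted p = 0.0506 to 0.0632). With a peak in 2 control and 4 cKO libraries, it met the filter of 3 libraries only through the cKO libraries. Its p is therefore not taken as support either.

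Hdac9 held 21 of the 44 regions, 17 with positive and 4 with negative differences, and its 2 most enriched regions were among the 4. Over all regions 51.3% were negative. Some positive Hdac9 regions, such as chr12:34760685-34761189, had a peak in no control library and entered the test only through cKO libraries. The split is therefore not read as a result on Hdac9. At chr12:34525352-34529792, which covers the inner start site, control libraries covered 3959, 3769, 3937 and 3662 bp and cKO libraries 2875, 3224, 3010 and 3578 bp. The groups did not overlap, as in 15.2% of all regions with lower values, and the difference did not pass (−0.27, limma adjusted p = 0.0862). At chr12:34905479-34908299 control libraries covered 2381, 2266, 2580 and 2395 bp and cKO libraries 2044, 2159, 2247 and 2108 bp (−0.16, limma adjusted p = 0.151), again without overlap. Among the other regions with a median fold of at least 10, a pair went the other way without overlap, as in 3.56% of all regions with higher values. At chr12:34495723-34497042 the means were 1000 bp in control and 1197 bp in cKO (0.24, limma adjusted p = 0.113). At chr12:34713931-34714932 they were 767 and 867 bp (0.16, limma adjusted p = 0.225). Peaks came from sorted nuclei and the Hdac9 RNA difference from whole tissue, so the values stand side by side only.

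**Figure D4:**
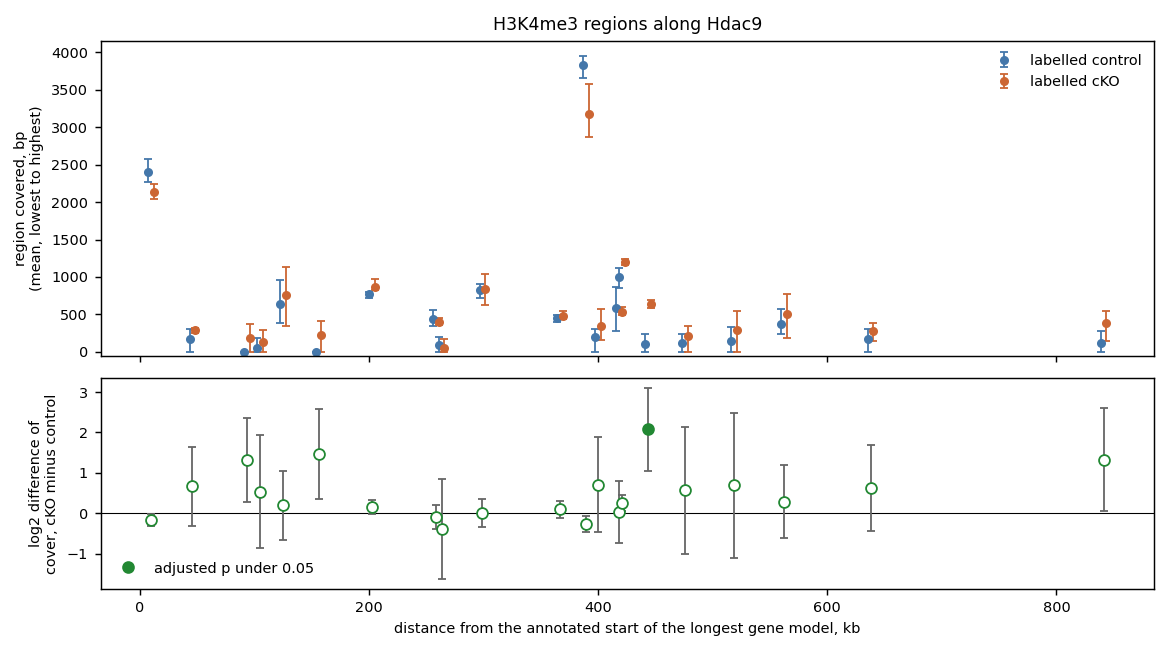
H3K4me3 regions along Hdac9 by distance in kb from the start of the longest gene model, with the bp covered in libraries labelled control and cKO (mean, lowest to highest, n = 4 each) above and the log2 difference with its 95% confidence interval below. The broadest region, near the inner start site, has means of 3832 bp in control and 3172 bp in cKO, and the 1 filled point is the region that rose from 104 to 640 bp. That region entered the test only through the cKO libraries.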

How the data were processed

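RNA was measured in 18 libraries and 4 histone marks in 30. The authors deposited 1 whole-number read count per Ensembl gene for each RNA library and 1 peak list for each ChIP library. The aligner, the counting tool and the strandedness of counting are not given in the sources used here. The builds mm10 and GRCm38 and the tools SAMtools and MACS2 come per the submitters' processing notes. Per the file headers, peaks were called by MACS 2.1.1.20160309 for H3K4me3 and 2.1.0.20140616 for the other marks, per library, against 1 input per genotype (31.3 M tags for cKO, 28.8 M for control), so input and genotype cannot be told apart. The deposited lists give each peak's length, pileup signal, fold enrichment, −log10 p-value and −log10 q-value. ChIP libraries held 24.4 to 41.6 M tags. Peak cover depends on peak calling and is not a measure of height.

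Symbols matched 99.3% of neuron and 98.9% of whole CA gene IDs. Counts were filtered by edgeR's filterByExpr, normalised by TMM and tested with edgeR 4.0.16 (quasi-likelihood, R 4.3.3) over all genes, with 19622 genes tested for neurons and 15362 for whole CA. The test between materials and of the interaction used both in 1 fit. Cover was tested as log2(bp + 100) with limma 3.58.1 over all sites with a peak in at least 3 libraries, so fold changes of low cover are understated. The pipeline was tested on simulated data. Of simulated log2 changes of 0.5 in size, it recovered 26.3% in neuron RNA, 57.1% in whole CA RNA and 70% in H3K4me3 cover. Of changes of 1 in size, it recovered 73.7%, 92.6% and 84%. Members and gene lists were chosen with earlier results of these data known. Named partners were those called, or otherwise the one with the smallest p of its list, and genes of like pattern were the highest correlations among those whose log2 CPM averaged 3 or more. Regions were named when called, or when present in all 8 libraries with a median fold of at least 10. Replicate numbers did not pair the samples. Alternatives were other scaling, low-count filters, DESeq2 1.42.0, windows, offsets, a stricter q-value, a replicate block, lane subsets and each library left out. Gene ends, lane as a term and alternatives for regions were chosen after seeing the data.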

Additional observations from a re-analysis of the deposited data

Results flagged for a closer look

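In 126 groups of 4 to 10 libraries, 8 had a highest or lowest library far from the others by Dixon's test, and chance alone gives this in about 1 in 20 groups. The H3K4me3 cover at the Hdac4 start site was 3588 bp in control replicate 2 and 3145 to 3172 bp in the other controls. At the Hdac5 start site, where the window cut the peak short, it was 3167 bp in control replicate 4 and 3145 to 3147 bp in the others. In the Hdac9 region starting at 34713931 it was 971 bp in cKO replicate 2 and 821 to 845 bp in the others. The H3K9ac cover at the Hdac3 end at 37955015 was 3096 bp in control replicate 1 and 3509 to 3550 bp in the others.

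Of the 8, 4 came from the H3K4me1 libraries numbered 3. At the Hdac1 end at 129542646, cover was 2165 bp in cKO replicate 3 (others 3110 to 3291 bp) and 2243 bp in control replicate 3 (others 3142 to 3284 bp). At the Hdac3 end at 37936971 it was 1554 bp in control replicate 3 (others 255 to 279 bp), and at 37955015 it was 1740 bp in cKO replicate 3 (others 3115 to 3191 bp).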

How the results depend on the processing

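The fall of Hdac9 in whole CA RNA kept its sign in 21 alternatives (−0.51 to −0.43) and passed in 20. Within replicates 4 to 6 it did not, so the count of members called there went from 1 to 0. Hdac1 in neuron RNA stayed negative in 12 alternatives (−0.30 to −0.22) and passed in none (adjusted p = 0.116 to 0.369). The cause of each change below was not tested, except that fewer libraries or a smaller window enter by construction. Replicate numbers gave correlations of deviations from −0.06 to 0.29 in neuron RNA, and they did not pair the samples.

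Genes called in neuron RNA were 539, and 840 with DESeq2, 327 with the replicate block and 207 to 482 with a library left out. In whole CA RNA they were 640, and 207 in replicates 1 to 3 and 224 in replicates 4 to 6. The interaction called 28, and 69 with no filter, 75 with DESeq2, 16 with replicates 4 to 6 and 18 to 32 with a library left out. Signs of small values turned. In whole CA, Hdac8 was 0.00058 with library size scaling and 0.016 in replicates 1 to 3, where Hdac2 was 0.052 and Hdac5 −0.024. In the interaction Hdac2 was −0.010 with no filter and −0.078 in replicates 1 to 3, where Hdac5 was 0.068 and Hdac7 0.030. Between materials Hdac9 was 0.13 with library size scaling and 0.021 with no filter. With a library left out, neuron values ran from −0.054 to 0.13 (Hdac5), −0.062 to 0.27 (Mef2c), −0.10 to 0.030 (Hdac2) and −0.070 to 0.16 (Hdac7). Whole CA values ran from −0.074 to 0.017 (Hdac8), −0.00020 to 0.083 (Hdac1) and −0.049 to 0.010 (Hdac4). Interaction values ran from −0.055 to 0.067 (Hdac2) and −0.21 to 0.033 (Hdac7), and Hdac9 between materials from −0.13 to 0.085.

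For H3K4me3, 2 member start sites passed, and 4 with gene ends added, 0 with a 1000 bp window, 1 with 5000 bp, 1 with the replicate block and 0 to 2 with a library left out. Sites called among all were 4161, and 267 with 1000 bp. The 1000 bp window turned Hdac4 (0.10), Hdac2 (0.012), Hdac9 (0.078), both Hdac7 sites (0.021 and 0.044) and Hdac1 (0.0098). The 5000 bp window gave Hdac5 −0.18 and the Hdac3 end −0.42, and the stricter q-value the Hdac7 site at 97814863 0.094. With a library left out, Hdac9 ran from −0.067 to 0.0066, Hdac7 at 97814863 from −0.51 to 0.041, Hdac5 from −0.0027 to 0.016 and Hdac3 from −0.013 to 0.027. Members' regions called were 5, and 1 with the replicate block and 1 to 6 with a library left out. With the block the Hdac5 region, whose control libraries are all at 0 bp without spread, kept its call. The regions of Hdac1 (limma adjusted p = 0.132 and 0.168), Hdac3 (0.0614) and Hdac9 (0.0858) lost theirs. All regions called were 4825, and 2501 with the block. The Hdac4 region at 92180400 ran from −0.031 to 0.098 and the Hdac9 region at 34657925 from −0.18 to 0.0031.

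H3K9ac sites called were 179, and 56 (1000 bp), 343 (5000 bp), 314 (offset of 1000 bp), 0 (replicate block) and 7 to 90 with a library left out. Hdac7 at 97814863 was −0.18 with 1000 bp, Hdac3 0.14 with the stricter q-value and 0.031 with the block, Hdac7 at 97844502 −0.081 and Hdac8 0.087 with the block. With a library left out, ranges were −0.028 to 0.023 (Hdac5), −0.085 to 0.70 (Hdac7 at 97844502), −0.086 to 0.46 (Hdac7 at 97814863), −0.093 to 0.087 (Hdac8) and −0.15 to 0.13 (Hdac3). H3K27ac sites called were 79, and 5 (offset of 1000 bp), 0 (replicate block) and 11 to 83, with Hdac4 at −0.040 (1000 bp) and Hdac5 from −0.034 to 0.016. H3K4me1 sites called were 594, and 255 (1000 bp), 1705 (5000 bp), 332 (stricter q-value), 31 (replicate block) and 318 to 544. The 1000 bp window gave Hdac8 1.14, Hdac1 −0.86 and 0.21 and Hdac3 1.29. The 5000 bp window gave Hdac1 −0.19, Hdac2 −0.26 and Hdac7 0.033 and 0.012, and the stricter q-value Hdac7 2.89 and 2.78. With a library left out, ranges were −0.018 to 0.066 (Hdac2), −0.0078 to 0.040 (Hdac9), −0.23 to 0.16 and −0.13 to 0.13 (Hdac1) and −0.30 to 0.040 (Hdac3).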
